A study of Mus musculus with 9 samples.

Results

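Cxcl1, Cxcl3 and Cxcl5 of the CXC chemokine family and Ccl2 and Ccl7 of the CC family were followed in AML12 cells, a mouse hepatocyte line. They are 5 of the 10260 gene symbols listed in the count tables, taken by symbol, and each had 1 listed transcript. They were selected on their measured change in PA/OA cells against control, which earlier work on these counts had shown. The changes against control are therefore described here with their error and without a test.

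RNA was sequenced from 9 samples in 3 groups of 3. The control cells received no fatty acids and no peptide. The PA/OA cells were kept for 24 h with PA at 0.2 mM and OA at 0.4 mM, taken to mean palmitic and oleic acid. The Ang(1-7)+PA/OA cells were given the peptide Ang(1-7), which opposes angiotensin II in many tissues, at 100 nM, and after 30 min the fatty acids at those doses. All groups were the same line in DMEM with serum. No group received the peptide alone. The labels do not say whether the controls received the fatty acid carrier, so the fatty acids and their carrier cannot be told apart. Whether the samples of a group were grown as separate cultures is not given by the labels. A p-value here therefore reflects no more than the spread of these samples, part or all of which may be technical.

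Chemokines are small secreted proteins that bind receptors on white blood cells and draw them toward the source. Cxcl1, Cxcl3 and Cxcl5 act on the receptor Cxcr2 and attract neutrophils, whereas Ccl2 and Ccl7 act on Ccr2 and attract monocytes. Hepatocytes are one source of them in the fatty or injured liver, and many chemokine genes are transcribed through NF-kB and have messages with short half-lives set by AU-rich elements.

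The CXC members lie in 1 gene cluster and the CC members in another. On chromosome 5 the order of neighbouring genes in RefSeq (GRCm38.p6) was Cxcl5, Ppbp, Pf4, Cxcl3, Cxcl15, Cxcl1 and Cxcl2. On chromosome 11 it was Ccl2, Ccl7, Ccl11, Ccl12 and Ccl8. Pf4, Ccl11 and Ccl12 were listed in no table.

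RefSeq promoter windows (GRCm38.p6) were matched for 2 of the 5 genes, Cxcl1 and Cxcl3, and both are shown, with the bases that match the NF-kB site. The 250 bases before each start are given, at chr5:90890995-90891244 (plus strand) for Cxcl1 and chr5:90785851-90786100 (plus strand) for Cxcl3. Capitals mark the bases that match the kappa B consensus on either strand.
Cxcl1: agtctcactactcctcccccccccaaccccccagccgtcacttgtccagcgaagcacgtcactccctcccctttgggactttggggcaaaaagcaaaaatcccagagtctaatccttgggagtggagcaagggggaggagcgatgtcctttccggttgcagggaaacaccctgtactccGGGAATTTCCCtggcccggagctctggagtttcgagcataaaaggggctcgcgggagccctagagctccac
Cxcl3: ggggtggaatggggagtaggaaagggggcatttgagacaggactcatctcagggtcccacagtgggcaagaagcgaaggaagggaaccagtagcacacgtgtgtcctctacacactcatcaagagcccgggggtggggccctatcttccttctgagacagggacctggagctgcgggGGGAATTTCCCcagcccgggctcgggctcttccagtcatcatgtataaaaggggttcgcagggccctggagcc

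The run GGGAATTTCCC starts 71 bases before the start of Cxcl1 and 73 bases before that of Cxcl3, and its 11 bases were the longest run the windows share. It is 1 stretch counted on both strands, since the plus and minus matches of the kappa B consensus overlap. Of 32851 RefSeq promoter windows of this length, 7.25% held a match to the consensus on either strand. The AP-1 motif TGANTCA, searched on both strands, matched neither window and 6.75% of all windows. The letters TATAAA, also searched on both strands, matched Cxcl3 at 30 to 25 bases before the start, and 12.4% of all windows held them. These matches describe letters, not bound sites, and binding was not measured.

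The listed counts of a sample, in its largest table, came to between 24759184 and 28704499. Levels are given as CPM, a gene's counts relative to its library's listed total, with trimmed mean scaling, over the 6674 transcripts listed in all 3 tables. The hepatocyte label was checked against 13 markers. Of these, 9 were listed in the table of both fatty acid groups, and 7, including Alb, Ttr and Hnf4a, also in the tables with controls. Apoa1 and Tat were not listed with controls. Apoa1 was at 0 in PA/OA libraries 1 and 3, and Tat in PA/OA libraries 2 and 3 and Ang(1-7)+PA/OA library 2. Apoa2, Serpina1a, Ahsg and Fgb were listed in none. Ang(1-7)+PA/OA library 2 stood apart, with 1029 genes at 0 where the other fatty acid treated libraries had 225 to 682. Of 8 listed markers of neurons and glia, all were above 0 in Ang(1-7)+PA/OA libraries 2 and 3, whereas only 1 was above 0 in each PA/OA library. All 5 listed stellate cell and fibroblast markers were also above 0 in these libraries, against 1 or 2 in each PA/OA library. So were both listed erythroid markers, Hba-a1 and Hbb-bs, against 0 or 1. The log2 fold changes of the 5 genes that rest on these libraries are therefore also given without them.

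Cxcl5, a neutrophil attractant of epithelial cells, showed the highest fold of the 5 genes in the fatty acid groups. Its level was 240, 249 and 230 CPM in controls 1 to 3 and 1706, 1510 and 1674 CPM in PA/OA libraries 1 to 3. It was 1700, 1172 and 1799 CPM in Ang(1-7)+PA/OA libraries 1 to 3. All 6 treated libraries lay far above the controls, and Ang(1-7)+PA/OA library 2 was the lowest of them. The edgeR fold of PA/OA against control was 6.79, with a 95% interval of 6.15 to 7.48. It ranked 3 by rise among 6213 genes.

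Cxcl1, the best known ligand of the neutrophil receptor Cxcr2, stood at 168, 152 and 140 CPM in controls 1 to 3. It stood at 516, 477 and 452 CPM in the PA/OA libraries. In the Ang(1-7)+PA/OA libraries it stood at 510, 282 and 540 CPM. Library 2 of that group was nearer to the controls than any other treated library, yet still above each of them. The fold of PA/OA against control was 3.14 (95% interval 2.79 to 3.53).

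Cxcl3 shares its receptor and its gene cluster with the 2 genes above, and in controls it was the steadier of the low members. Its level was 18.4, 18.0 and 17.8 CPM in controls, 88.0, 71.3 and 74.2 CPM in PA/OA libraries and 81.1, 73.0 and 87.0 CPM in Ang(1-7)+PA/OA libraries. The treated groups overlapped each other and lay apart from the controls. The fold of PA/OA against control was 4.30 (95% interval 3.51 to 5.28). Ang(1-7)+PA/OA library 2 was its lowest of that group, within the PA/OA range with trimmed mean scaling and below it without (67.8 CPM against 72.8 to 87.4).

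Ccl2, the main monocyte attractant of the liver, had the highest level and the lowest fold of the 5. It stood at 1057, 881 and 967 CPM in controls, 1791, 1647 and 1738 CPM in PA/OA libraries and 1767, 1889 and 1799 CPM in Ang(1-7)+PA/OA libraries. Its treated groups were the tightest of the 5 genes, with a coefficient of variation of 4.22% in PA/OA and 3.48% in Ang(1-7)+PA/OA. The fold of PA/OA against control was 1.78 (95% interval 1.62 to 1.95), which ranked 219 by rise.

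Ccl7, a monocyte attractant next to Ccl2 in the genome, was the lowest of the 5 genes. It stood at 10.2, 10.8 and 5.43 CPM in controls, 37.7, 33.2 and 33.3 CPM in PA/OA libraries and 40.5, 65.5 and 46.6 CPM in Ang(1-7)+PA/OA libraries. Control 3 held 142 counts (exact Poisson 95% interval 120 to 167). Controls 1 and 2 held 276 (244 to 311) and 291 (259 to 326), so the interval of control 3 lay below theirs. Such intervals cover counting error only and take reads as independent. They are too narrow if reads, counted without molecular identifiers, are copies of 1 molecule. The fold of PA/OA against control was 3.93 (95% interval 2.80 to 5.50).

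**Figure D1:**
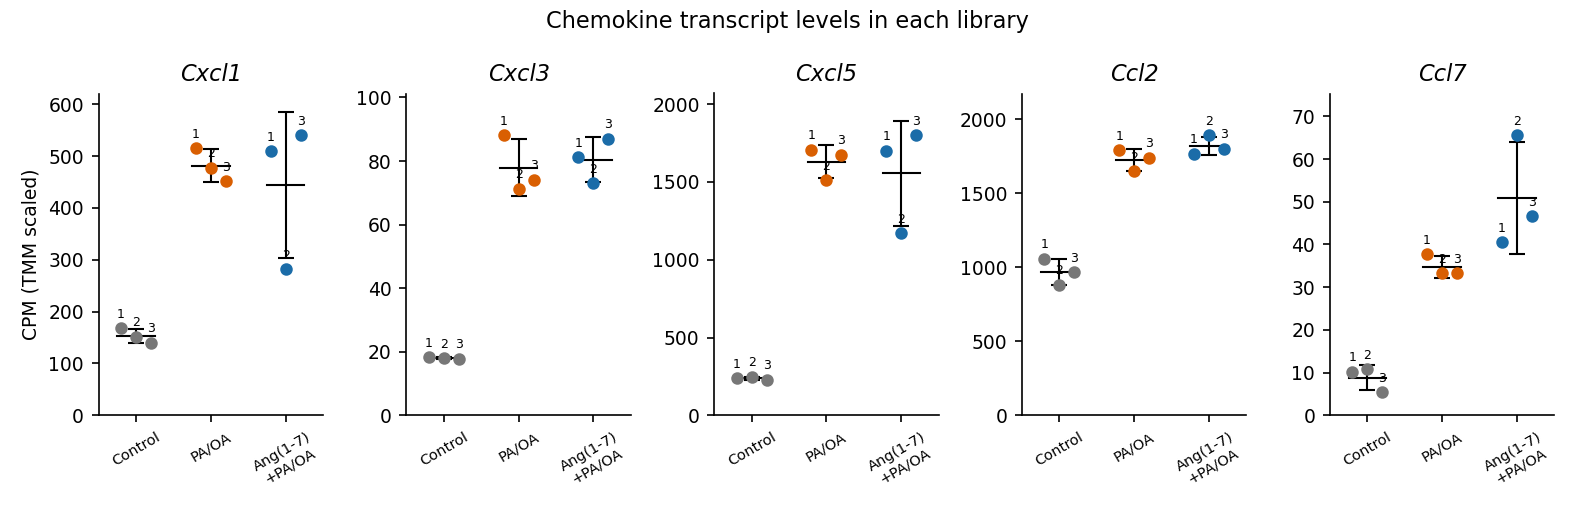
CPM with trimmed mean scaling (y axis, starting at 0 and scaled per gene) of the 5 chemokines in each library (points, labelled with the replicate number), with the mean and SD of each group (n = 3). The treated libraries lie above the controls for each gene, and Ang(1-7)+PA/OA library 2 is low for Cxcl1 and Cxcl5 and high for Ccl7.

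Groups of all 5 genes did not overlap between PA/OA and control, where 12.2% of all genes tested were higher without overlap and 2.82% were higher and 2.24% lower with an adjusted p under the threshold of 0.05. The members were chosen with this contrast known, so nothing is read from their count. The same holds for Ang(1-7)+PA/OA against the same controls, where 13.2% of genes were higher without overlap. There the edgeR log2 fold changes were 1.52 ± 0.23 (SE) for Cxcl1, 2.14 ± 0.15 for Cxcl3, 2.69 ± 0.17 for Cxcl5, 0.89 ± 0.10 for Ccl2 and 2.51 ± 0.31 for Ccl7. The log2 fold changes of PA/OA against control were 1.65 ± 0.08, 2.11 ± 0.14, 2.76 ± 0.07, 0.83 ± 0.07 and 1.97 ± 0.23 in that order. The errors were larger with Ang(1-7)+PA/OA for each gene. Without library 2 of that group its log2 fold changes over control were 1.77, 2.21, 2.86, 0.87 and 2.30 in the same order. Without libraries 2 and 3 they were 1.73, 2.16, 2.82, 0.86 and 2.19. Wherever both are left out, the group holds 1 library, so only the size of the change is given. In bulk RNA, more cells that make a chemokine and more RNA per cell cannot be told apart.

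Compared per kilobase of transcript, the order of the genes changed with treatment. In controls Ccl2 was first at 1191 ± 108 CPM per kb (SD, n = 3), followed by Cxcl1 at 161 ± 14.5 and Cxcl5 at 152 ± 6.20, which overlapped. Cxcl3 at 17.8 ± 0.309 and Ccl7 at 11.0 ± 3.68 CPM per kb came last. In PA/OA cells Cxcl5 stood above Cxcl1, at 1035 ± 66.8 against 505 ± 33.7 CPM per kb, while Ccl2 stayed first at 2122 ± 89.6. In Ang(1-7)+PA/OA cells the order was the same, and the ranges of Cxcl3 and Ccl7 overlapped there, at 71.9 to 85.7 and 50.6 to 81.8 CPM per kb.

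The make-up of the chemokine pool also differed. The 5 genes took 0.148%, 0.130% and 0.134% of the listed counts in controls 1 to 3, and 0.413%, 0.385% and 0.402% in PA/OA libraries 1 to 3. The neutrophil attractants Cxcl1, Cxcl3 and Cxcl5 together made up 28.5%, 32.0% and 28.5% of the 5 genes' counts in controls. In PA/OA libraries they made up 55.8%, 55.1% and 55.4%. These shares are of raw counts, which favour long transcripts such as Cxcl5. Per kilobase, the neutrophil attractants made up 21.6% ± 1.55 of the 5 genes' level in controls and 42.7% ± 0.400 in PA/OA libraries (SD, n = 3), so the monocyte attractants held the larger part in both groups. By counts, in Ang(1-7)+PA/OA libraries 1 and 3 the share was 55.9% and 56.8%, and in library 2 it was 43.9%. Per kilobase these 3 libraries had 43.2%, 44.1% and 31.6% in that order. Cxcl5 counts per Ccl2 count were 0.917 to 0.963 in PA/OA libraries and 0.227 to 0.283 in controls, and 0.620 in Ang(1-7)+PA/OA library 2.

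**Figure D2:**
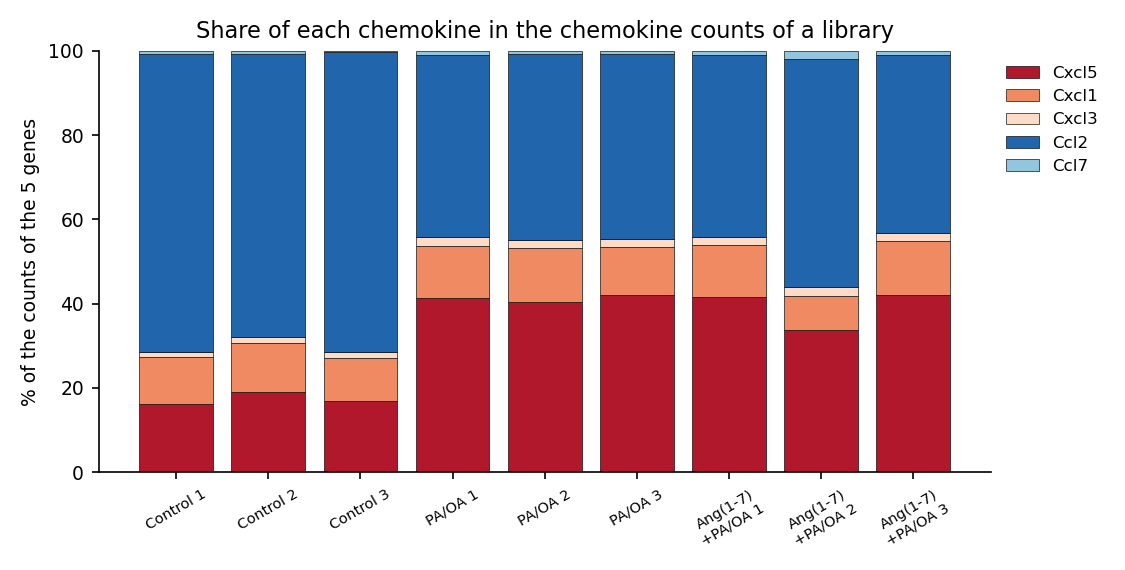
Share of each gene in the summed counts of the 5 chemokines (y axis, %) in each of the 9 libraries (bars). Cxcl5 widens and Ccl2 narrows from the controls to the treated libraries, and Ang(1-7)+PA/OA library 2 lies between them with 43.9% CXC counts.

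Whether Ang(1-7) altered the chemokine levels of fatty acid treated cells was tested within the table of both groups, with the PA/OA libraries that also entered the choice of the genes. None of the 5 genes passed, and 0% of the 9261 genes tested had an adjusted p under the threshold (edgeR quasi-likelihood test, Benjamini-Hochberg adjustment). At an unadjusted p under 0.05 there were 236 genes, and DESeq2 called 5, none of them a member. The fold of Ang(1-7)+PA/OA over PA/OA was 0.922 for Cxcl1 (95% interval 0.658 to 1.29, edgeR adjusted p = 0.972). For Cxcl5 it was 0.955 (0.745 to 1.23, edgeR adjusted p = 0.979) and for Cxcl3 1.03 (0.819 to 1.30, edgeR adjusted p = 0.980). Ccl2 had a fold of 1.05 (0.904 to 1.23, edgeR adjusted p = 0.965). The log2 fold changes of Cxcl3 and Ccl2, 0.05 and 0.08, were 0.12 and 0.058 without library 2 of the Ang(1-7)+PA/OA group, and 0.061 and 0.036 without libraries 2 and 3. A missed threshold does not show that the levels were alike, and the interval of Cxcl1 was the widest of these 4.

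Library 2 of the Ang(1-7)+PA/OA group set the sign for Cxcl1 and Cxcl5. Their log2 fold changes were -0.12 ± 0.22 (SE) and -0.07 ± 0.16 with it, and 0.14 and 0.11 without it. Relative to the PA/OA mean, its Cxcl1 stood at 0.585 and its Cxcl5 at 0.719, whereas its Cxcl3 stood at 0.938 and its Ccl2 at 1.09. Its Ccl7 stood at 1.88, its Ccl9 at 1.58 and its Ccl20 at 1.42. In libraries 1 and 3 of the group the same 7 chemokines lay between 1.00 and 1.34 of the PA/OA mean. In library 2, Cxcl1 and Cxcl5 were below the lowest PA/OA library and Ccl7, Ccl9 and Ccl20 above the highest, with and without trimmed mean scaling, whereas the places of Cxcl3 and Ccl2 changed with the scaling. The other chemokines did not divide by family there. Without that scaling, Ppbp and Cxcl17 of the CXC family were above the PA/OA range, Ccl8 was below it, and Cxcl2 and Ccl6 were within it. Cxcl17 was also above it in libraries 1 and 3, Ppbp in library 3, and Ccl8 was below it in library 1. At low counts, Cxcl10, Cxcl15 and Cx3cl1 were above it in library 3 as in library 2, and Ccl25 was below it in library 2. In library 1, Cxcl15 was above it and Cxcl10 below it. Ccl20 was above it in libraries 1 and 3 as well. With the scaling, its library 3 value of 31.5 CPM was under the highest PA/OA value of 32.2 CPM. The same library had the lowest summed cholangiocyte markers, 1135 CPM without trimmed mean scaling against 1561 to 1705 CPM in the other treated libraries, and the highest summed markers of neurons and glia, 215 CPM against 131 to 137 CPM in PA/OA. Library 3 had nearly as much of the latter, at 195 CPM, with Cxcl1 at 1.12 and Cxcl5 at 1.10 of the PA/OA mean. Stellate cell and fibroblast markers summed to 20.4 and 15.1 CPM in libraries 2 and 3, against 5.98 to 9.22 CPM in PA/OA and 8.56 CPM in library 1. Erythroid markers summed to 4.01 and 2.44 CPM there, against 0 to 0.159 CPM in PA/OA and 0 in library 1. The part of these markers in the chemokine values was not tested.

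Of the 5 genes, only Ccl7 had groups that did not overlap in this comparison. Its lowest Ang(1-7)+PA/OA library, at 40.5 CPM, lay above its highest PA/OA library, at 37.7 CPM. Over all genes tested, 4.60% were higher without overlap. Among the other chemokines tested, Cxcl17 was too, with 117, 219 and 104 counts against 40, 88 and 75 in PA/OA. The fold of Ccl7 was 1.47 (95% interval 1.06 to 2.03), with an edgeR p of 0.0264 before and 0.965 after adjustment. Its log2 fold change of 0.55 ± 0.21 (SE) fell to 0.34 without library 2 of the Ang(1-7)+PA/OA group and to 0.22 without libraries 2 and 3. The authors' deposited table gives a log2 fold change of 0.57 for it, with an unadjusted p of 0.00546. Ccl7 thus did not pass the adjustment, and the size of its difference moved by over 1.5 times when library 2 was left out.

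**Figure D3:**
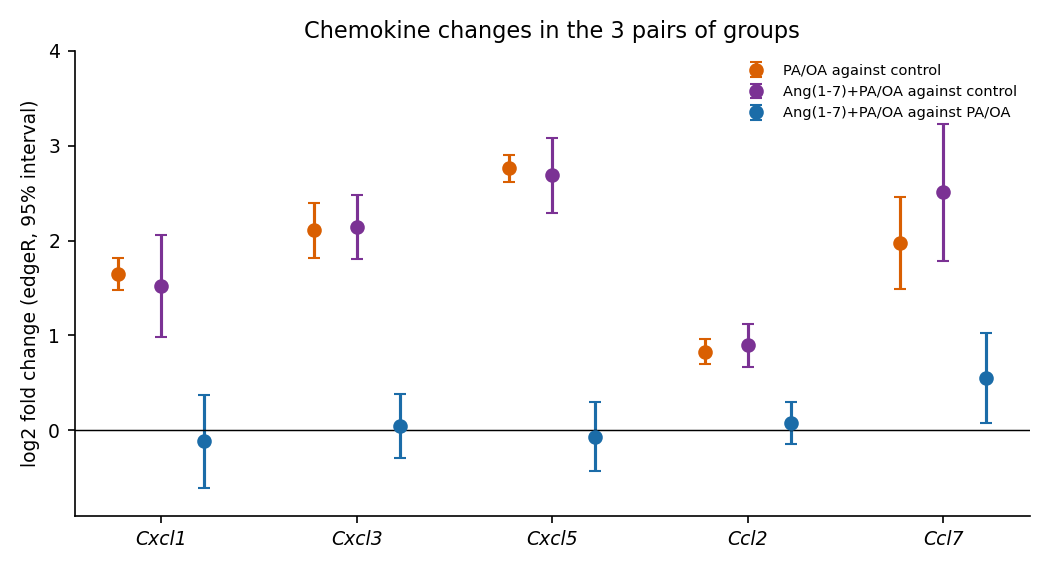
Log2 fold change from edgeR (y axis) of each gene in the 3 pairs of groups (colours), with its 95% interval. Both comparisons with control share the control libraries and lie above 0 for each gene, and the intervals of Ang(1-7)+PA/OA against PA/OA include 0 except for Ccl7 at 0.55.

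Beside the 5 genes, 6 other CXC or CX3C chemokines and 5 other CC or XC chemokines were listed in some table. In PA/OA against control, 0 of 3 tested in the first group and 1 of 4 in the second passed, where 2.82% of all genes tested were higher and 2.24% lower past the threshold. The medians of their log2 fold changes were 0.49 and 0.52, beside 0.01 for all genes tested. Ccl9, a CC chemokine that acts on Ccr1, rose from 252 ± 17.7 to 406 ± 23.0 CPM (SD, n = 3), with a log2 fold change of 0.69 ± 0.08 (SE) and an edgeR adjusted p of 6.08e-06. In a joint fit of all 9 samples it kept that log2 fold change and did not pass (edgeR adjusted p = 0.137). Cxcl2, the neighbour of Cxcl1 in the cluster and a ligand of the same receptor, had 46, 91 and 80 counts in controls and 223, 109 and 139 in PA/OA libraries. Its log2 fold change of 1.16 ± 0.45 did not pass (edgeR adjusted p = 0.146). Ccl8, of the Ccl2 cluster, had 271 counts in PA/OA library 1 but 50 and 51 in the others, so its value of 0.76 ± 0.57 rests on that library. Ccl20, an attractant of lymphocytes through Ccr6, had a log2 fold change of -0.07 ± 0.18. No receptor on the list of 23 chemokine receptors was listed in either table with controls. In the table of both fatty acid groups Ackr3, a scavenger receptor, was the only one, with at most 50 counts in a library.

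Genes known to act upstream of the chemokines, or to be switched on with them, were taken as lists of known pathway members. The lists were drawn up with earlier results of these data known, so their counts are a description and support nothing. Of 32 inflammatory NF-kB targets, 17 were tested in PA/OA against control. Of these, 6 passed upward and none downward, and their median log2 fold change was 0.77, beside 2.82% higher and 2.24% lower and a median of 0.01 over all genes tested. In controls, 5 of the 17 had mean counts under 56.8, the lowest mean of any gene in the table, so they were listed only through their level in PA/OA. Of the other 12, 4 passed upward, with a median of 0.59. C3, the central complement component, rose from 45.9 ± 2.07 to 216 ± 18.1 CPM (edgeR adjusted p = 4.04e-12). Ptgs2, the prostaglandin synthase COX-2, rose by 0.79 ± 0.07 (log2, SE), with an edgeR adjusted p of 1.35e-07. Ier3, named after its values were seen, was at 356 ± 24.2 and 578 ± 52.0 CPM (edgeR adjusted p = 5.78e-06). Saa3, an acute phase protein, and Lcn2, the iron-scavenging lipocalin, also named after its values were seen, were among the genes listed only through PA/OA, so their calls say little. Saa3 had 26, 4 and 46 counts in controls and 525, 547 and 562 in PA/OA libraries, and Lcn2 had 6, 0 and 1 in controls and 273, 106 and 82 in PA/OA libraries.

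Of 17 tested receptors, adaptors and NF-kB subunits, 2 rose, none fell, and the median log2 fold change was 0.15, beside the same 2.82% and 2.24% over all genes. They were Cebpd, a transcription factor of the acute phase response, at 1.60 ± 0.38 (edgeR adjusted p = 0.0168) and Tnfrsf1b, a TNF receptor, at 0.65 ± 0.17 (edgeR adjusted p = 0.0325). Of 10 NF-kB inhibitors and feedback genes, only Tnip3, a binding partner of the inhibitor A20, passed, at 1.24 ± 0.15 (edgeR adjusted p = 2.56e-05), and the median was 0.31, beside the same shares. Nfkbia, the inhibitor I-kappa-B-alpha, stood at 0.27 ± 0.08 (edgeR adjusted p = 0.0638) and did not pass. Nfkb2 of the first list and Bcl3 of the second had control means of 53.0 and 48.7 counts, under 56.8. Both were thus listed only through PA/OA, and neither passed. Without them the medians of these lists were 0.13 and 0.28.

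Among AP-1 and MAP kinase feedback genes, 1 of 14 passed, Fosl2, an AP-1 subunit, at 0.54 ± 0.11 (edgeR adjusted p = 0.00568). Of 9 proteins that bind AU-rich elements, 3 rose and none fell. Both counts stand beside 2.82% higher and 2.24% lower over all genes. They were the message-destabilising Zfp36l2 at 0.36 ± 0.09 (edgeR adjusted p = 0.0207) and Zfp36l1 at 0.55 ± 0.14 (edgeR adjusted p = 0.0280), and Khsrp, which also promotes decay of such messages, at 0.31 ± 0.08 (edgeR adjusted p = 0.0290). The 1 tested interferon-stimulated gene did not pass. Across all lists 14 genes passed, and 8 did without control 1. C3, Ptgs2, Tnip3 and Ccl9 passed whichever library was left out, whereas Cebpd, Tnfrsf1b, Fosl2, Zfp36l2, Zfp36l1 and Khsrp each lost the threshold when control 1 was left out. Of the 6 libraries left out in turn, Tnfrsf1b lost it without each, Cebpd, Zfp36l2, Zfp36l1 and Khsrp without 4 and Fosl2 without 1, with edgeR adjusted p up to 0.189. In the joint fit of 9 samples these 6 genes did not pass, with edgeR adjusted p from 0.235 to 0.834.

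**Figure D4:**
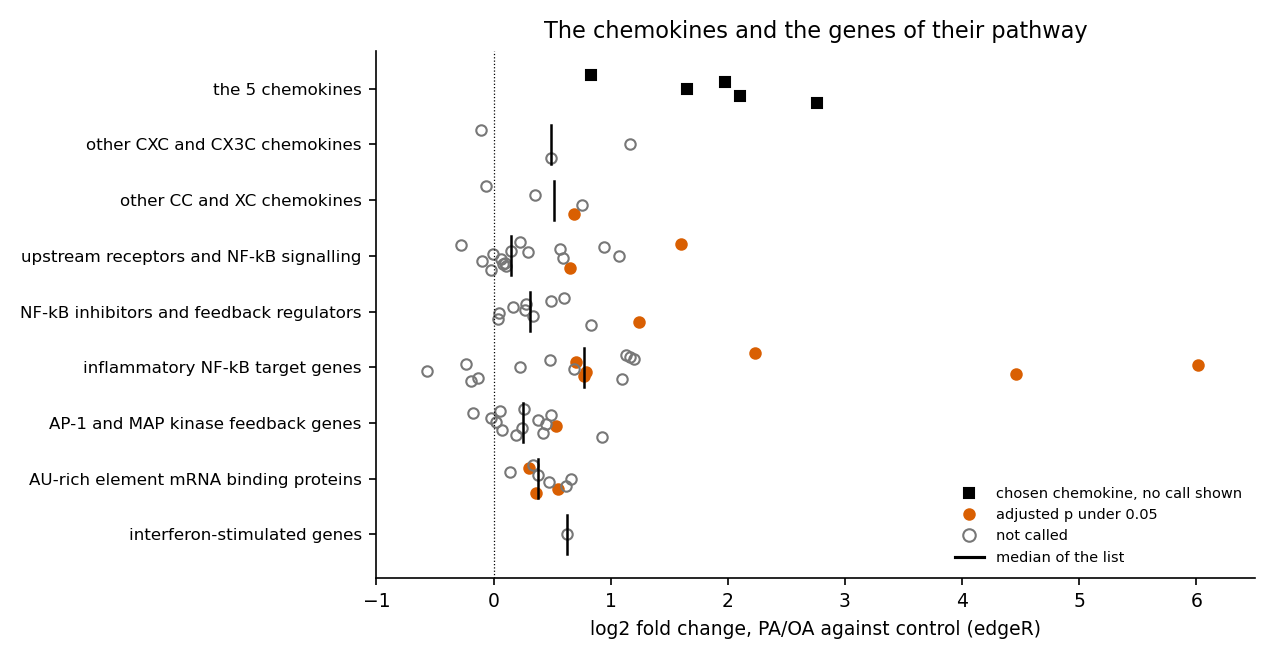
Log2 fold change of PA/OA against control (x axis, edgeR) of the 5 chemokines (black squares, no call shown) and of each tested gene of the pathway lists (circles, filled where the adjusted p was under 0.05), with the median of each list as a bar. Among the inflammatory targets 6 of 17 are filled, and both points farthest right are Lcn2 and Saa3, which were listed only through PA/OA, so their positions say little.

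With Ang(1-7) before the fatty acids, 4 list genes passed against control, where 0.245% of all genes tested were higher past the threshold. Among them, C3 stood at 2.34 ± 0.12 (edgeR adjusted p = 0.000198), Ptgs2 at 0.97 ± 0.10 (edgeR adjusted p = 0.00627) and Tnip3 at 1.06 ± 0.15 (edgeR adjusted p = 0.0430). Ccl9 stood at 0.93 ± 0.18 and did not pass (edgeR adjusted p = 0.0984). The count rose to 18 without Ang(1-7)+PA/OA library 2, fell to 2 without library 3 and fell to 1 without any single control, where only C3 still passed. Against PA/OA no gene of any list passed, with 4 to 31 tested per list except for 1 chemokine receptor.

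The genes most alike to the 5 chemokines across the 9 libraries were found by the correlation of log2 CPM with the mean standardised profile of the members. The libraries fall into groups with low and high values, so the correlation mostly reflects that split, and it is given with no test. Slfn2, of the Schlafen family, came first at a Pearson r of 0.992, with 221 ± 7.11 CPM in controls, 399 ± 9.84 in PA/OA and 407 ± 10.6 in Ang(1-7)+PA/OA. C3 followed at 0.990, then the haem carrier Hpx at 0.983, the retinal-handling enzymes Aldh1a1 and Rdh10 at 0.982 each, and the glycosyltransferase B4galt5 at 0.974. Aldh1a1 stood at 503 ± 17.2, 1254 ± 67.3 and 1402 ± 148 CPM in the 3 groups.

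Markers of white blood cells were few and low. All marker levels here are CPM without trimmed mean scaling. Of 10 macrophage markers 2 were listed, Cd68 and Lyz2, with a summed level of 3.69 to 7.38 CPM in controls, 4.50 to 7.80 CPM in PA/OA and 5.33 to 11.8 CPM in Ang(1-7)+PA/OA, which was highest in library 2. Of 8 neutrophil markers S100a8 alone was listed, at 4.75 to 6.75 CPM in controls, 10.7 to 17.9 CPM in PA/OA and 9.70 to 18.6 CPM in Ang(1-7)+PA/OA. The cholangiocyte markers, 4 of 5 listed, summed to 1993 to 2135 CPM in controls, 1568 to 1711 CPM in PA/OA and 1141 to 1714 CPM in Ang(1-7)+PA/OA, so both treated groups were below the controls without overlap. Of 9 stellate cell and fibroblast markers Des alone was listed with controls, at 2.93 to 5.71 CPM in controls, 5.42 to 8.96 CPM in PA/OA and 7.16 to 11.9 CPM in Ang(1-7)+PA/OA, where the last group did not overlap the controls. S100a8 lay above the controls in both treated groups, whereas Des overlapped them in PA/OA. The cholangiocyte markers went the other way, lower where the chemokines were higher. The part of these markers in the chemokine values was not tested. The summed level of the 7 hepatocyte markers listed with controls was 22784 to 23911 CPM in controls and 22526 to 23939 CPM in PA/OA, which overlapped. In Ang(1-7)+PA/OA it was 21226 to 22570 CPM against 22791 to 23919 CPM in controls in their shared table. Trimmed mean scaling would divide by 0.934 in library 2 of that group, at 22570 CPM, and by 0.984 to 0.991 in controls. The lack of overlap thus rests on leaving out the scaling, and no difference is read from it.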

How the data were processed

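Extraction used Qiazol with the miRNeasy kit, per the labels' protocols. Counts per RefSeq transcript were deposited as 3 tables, each holding the 6 samples of 2 groups. The submitters' processing notes list HTSeq 0.11.2, HISAT2 2.2.5 and bcl2fastq, and name a human build although the transcripts are mouse. Strand and multi-mapping settings were not given in the sources used. The authors' deposited tables also hold a log2 fold change and a p-value per transcript, used here only where named. Every sample column was matched to 1 sample by name, and its counts were identical wherever it appeared.

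The 5 genes and all lists were chosen with earlier results of these data known. Counts were summed per gene. Genes of each table were tested in R 4.3.3 with edgeR 4.0.16 (trimmed mean scaling, filterByExpr, quasi-likelihood test, checked on simulated data), with Benjamini-Hochberg adjustment over 6213, 6134 or 9261 genes. The tables with controls list only genes of higher counts than the table of both fatty acid groups does, so a low gene can be listed through the group where it is high. Of each list, up to 4 called genes with the lowest p were named, and the 6 genes most alike in profile among those with a mean of at least 50 counts. A gene that this rule named is not reported here. Likeness used log2 of CPM plus 0.5. Alternatives were DESeq2 1.42.0, its size factors in edgeR, no filter, a replicate block, a joint fit of all 9 samples, leaving out libraries, and, for the 5 genes, the most abundant curated transcript alone.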

Additional observations from a re-analysis of the deposited data

How the results depend on the processing

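The 5 genes kept their direction against control under each alternative run, and 0 of them passed in Ang(1-7)+PA/OA against PA/OA in any. In that last comparison the log2 fold change turned sign for Cxcl1 (0.083 without libraries 2 and 3 of the Ang(1-7)+PA/OA group, and -0.29 to 0.14 with 1 library left out), Cxcl5 (0.062, and -0.19 to 0.11) and Cxcl3 (-0.017 without PA/OA library 2, and -0.017 to 0.15 with 1 library left out).

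PA/OA against control gave 314 genes, 533 with DESeq2, 33 in the joint fit of 9 samples, and 99 (without control 1) to 397 (without PA/OA library 1) with 1 library left out. Without control 3 it gave 200, and without PA/OA library 2 or 3 it gave 147 or 134. Ang(1-7)+PA/OA against control gave 15 genes, 259 with DESeq2, 100 in the joint fit, 229 without Ang(1-7)+PA/OA libraries 2 and 3, and 4 to 624 with 1 library left out, the highest without Ang(1-7)+PA/OA library 2. It gave 4 without any single control, and 32 or 7 without Ang(1-7)+PA/OA library 1 or 3. Ang(1-7)+PA/OA against PA/OA gave 0 genes, 5 with DESeq2, and 0 to 18 with 1 library left out, the highest without Ang(1-7)+PA/OA library 1. List genes called in PA/OA against control went from 14 to 7 in the joint fit and to between 8 and 13 with 1 library left out. In Ang(1-7)+PA/OA against control they went from 4 to 12 with DESeq2, 11 in the joint fit, and 1 to 18 with 1 library left out. Ccl9 did not pass in the joint fit (edgeR adjusted p = 0.137). The cause was not tested.

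Replicate numbers did not pair the samples: correlations of same-numbered deviations ran from -0.0354 to 0.0343. With the replicate block 303, 10 and 0 genes were called in PA/OA against control, Ang(1-7)+PA/OA against control and Ang(1-7)+PA/OA against PA/OA, and list genes called in the second comparison were 2. Depth limits the 5 genes little, the lowest count being 142 for Ccl7 in control 3.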
